A study of Mus musculus with 2 samples.

Results

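The 10 genes described here are mRNAs that in textbooks mark liver and fat, looked for in a map of N6-methyladenosine (m6A) from mouse uterus. The liver genes are Apoa1, Ttr, Fgb and Alb, and the fat genes are Fabp4, Adipoq, Plin1, Cidec, Lep and Pparg. They were chosen by the names of liver and fat markers and by the low background of their peaks in earlier results of these data, so peak counts, backgrounds and fold enrichments are given as a description. A peak was counted for a gene when its summit lay in the gene's RefSeq span. By this rule 19 of the 26584 deposited peaks belonged to 8 of the 10 genes, and Plin1 and Pparg had none.

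The study mapped m6A in wild-type mouse uterus by methylated RNA immunoprecipitation sequencing, which sequences the RNA fragments that an anti-m6A antibody pulls down (IP) and, separately, unselected input. Females of 6 to 8 weeks were mated with fertile males and killed on gestational day 4, the day of the vaginal plug being day 1. The samples are 1 IP and 1 input of polyA RNA, described as mixed in cell type, and the number of animals behind them is not given in the sources used here. Neither has a replicate, so nothing here is tested across samples. The name of each of the 26584 peaks starts with D8NegIP-Posinput, and D8 is not the labelled day; which library served as background is not given. Of 18 genes listed as uterine markers, 17 had a peak, among them Pgr, Esr1, Hoxa10 and Hand2, against 44.9% of all protein-coding genes. The list also holds collagen, muscle, keratin and endothelial genes that are not particular to uterus, so this count does not settle the tissue.

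m6A is a methyl group placed on adenosines of mRNA, and it is known to be frequent near stop codons and in 3′ untranslated regions. Plasma proteins such as albumin, fibrinogen, transthyretin and apolipoprotein A-I are made chiefly by hepatocytes, though the visceral endoderm of the early embryo also makes some of them. Adipocytes store triglyceride in a droplet coated by perilipin and CIDEC, carry fatty acids on FABP4 and secrete the hormones adiponectin and leptin, under control of the nuclear receptor PPARγ.

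2 quantities describe each peak besides its position. The IP pileup is the number of IP fragments at the summit, and the background is the number expected there, in fragments on the IP scale. Both were solved from the deposited values, and the deposited fold enrichment is their ratio after 1 is added to each. Over all peaks the median pileup was 18, the median background 1.42 and the median fold enrichment 7.14. Backgrounds had a lowest level of 0.175, shared by 1333 peaks, and next to it a step of 0.192, of which many higher backgrounds are whole multiples. Low background here means at most 1 such step. Intervals are 95% Poisson intervals of the IP fragments at a fixed background and cover counting error alone, since copies made by amplification are not separate molecules. Wilson intervals of shares treat genes or peaks as independent draws.

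All 4 liver genes and 4 of the 6 fat genes had a peak. Of all protein-coding genes, 44.9% had one, and of those with spans under 20 kb, as in every gene of the 10 except Pparg, 33.6%. The 19 peaks had a median pileup of 11 fragments (range 5 to 30), and 8 of them rested on fewer than 10, against 20.9% of all peaks. Their median fold enrichment was 7.66 (range 5.03 to 25.2), near the 7.14 of all peaks. The pileups were thus lower than those of the list as a whole, while the fold enrichments were similar. Of the 10 genes, 6 had at least 2 peaks, as did 26.2% of protein-coding genes, and Fgb, Alb and Fabp4 had at least 3, as did 6.44% of protein-coding genes under 20 kb. In bulk tissue, fewer cells of a type and less RNA per cell cannot be told apart, which touches every level below.

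**Figure D1:**
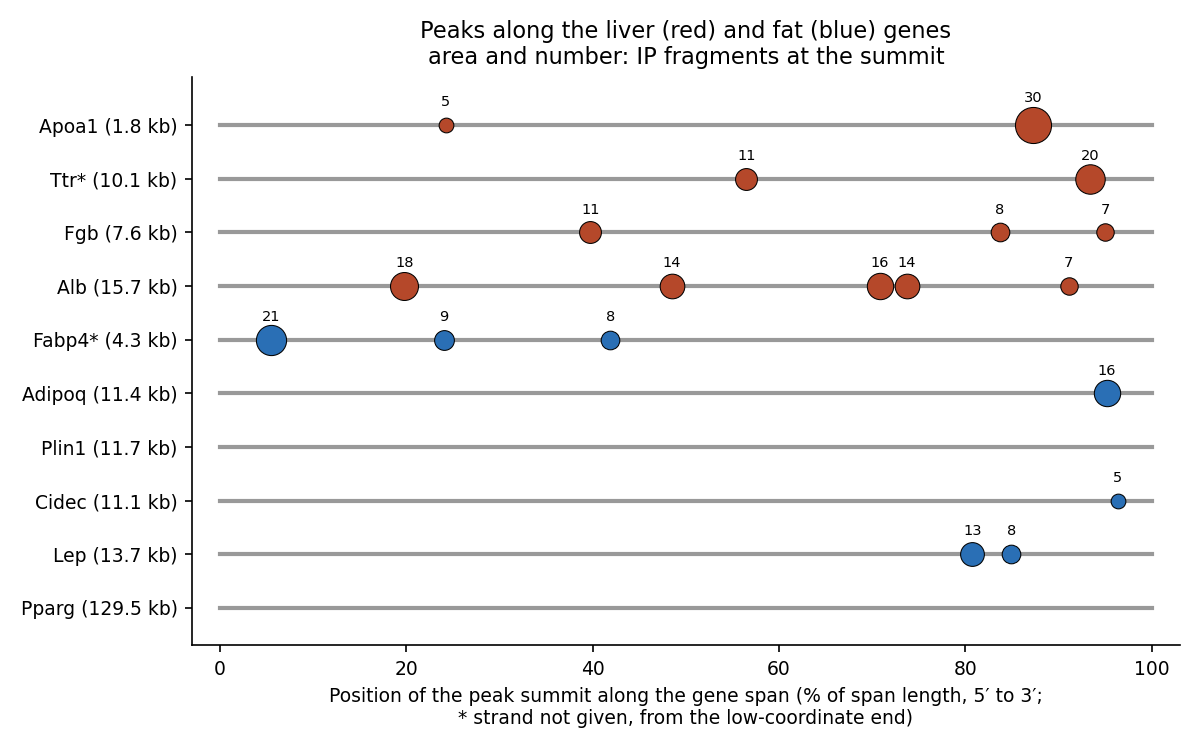
Each line is a gene span scaled to 100%, drawn 5′ to 3′ except for Ttr and Fabp4 (marked *), which run from the low-coordinate end, and each circle is a peak summit whose area and number give the IP fragments there. Alb and Fgb have peaks spread along the span, the single peaks of Adipoq and Cidec lie near the 3′ end, and Plin1 and Pparg have no peak.

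Apoa1, which encodes the main protein of high-density lipoprotein, had the strongest peak of the 10 genes. Its span is chr9:46228630-46230469 on the plus strand (mm10, 1840 bp). The strong peak, at chr9:46229710-46230431, held 30 IP fragments over a background of 0.231, a fold enrichment of 25.2 (17.3 to 35.6). That exceeds 99.2% of all peaks in the list, and its summit lay 233 bp from the 3′ end of the span. A second peak nearer the 5′ end, at chr9:46229018-46229217, held 5 fragments over the lowest background, a fold enrichment of 5.11 (2.23 to 10.8). The intervals of these 2 peaks do not overlap. Together they covered 50.1% of this short span. The 3 protein-coding genes that follow Apoa1 on the chromosome, the apolipoprotein genes Apoc3, Apoa4 and Apoa5, had no peak. On the low-coordinate side Sik3 had 9 peaks, Pafah1b2 had 1 and Sidt2 had none. The nearest peaks outside the span were 6406 bp below and 45646 bp above.

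Ttr encodes transthyretin, the carrier of thyroid hormone and, through RBP4, of retinol. It had 2 peaks in its span of 10118 bp on chromosome 18 (20664209 to 20674326). The stronger, with its summit 665 bp from the high-coordinate end, had 20 fragments over a background of 0.961 and a fold enrichment of 10.7 (6.74 to 16.3). The other had 11 fragments over 0.384 and a fold enrichment of 8.67 (4.69 to 14.9). The backgrounds were 5 steps and 2 steps, so neither peak of Ttr was at low background. The strand of Ttr is not in the table used for strands.

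Fgb, the gene of the fibrinogen beta chain, had 3 peaks in chr3:83042246-83049863 on the minus strand. The strongest, at chr3:83046701-83047009, lay 4591 bp from the 3′ end and held 11 fragments over the lowest background, a fold enrichment of 10.2 (5.53 to 17.6). The middle one held 8 fragments over 0.192, a fold enrichment of 7.55 (3.74 to 14.1), at 1241 bp from the 3′ end. The one nearest the 3′ end, at 381 bp, held 7 over 0.577, a fold enrichment of 5.07 (2.42 to 9.78). The 3 intervals overlap. Without the added 1, the strongest of the 3 was 62.9 times its background (31.4 to 112.6) and the one nearest the 3′ end 12.1 (4.88 to 25.0), and these intervals do not overlap. Of the neighbouring fibrinogen genes, Fga had 1 peak of 7 fragments over 0.231, a fold enrichment of 6.50 (3.10 to 12.5), and Fgg had none.

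Alb, which encodes serum albumin, had the most peaks of the 10 genes, 5, in chr5:90460870-90476602 on the plus strand, and the highest backgrounds. From the 5′ to the 3′ side the peaks held 18, 14, 16, 14 and 7 IP fragments. The backgrounds in the same order were 1.92, 0.961, 0.961, 1.54 and 0.192, or 10, 5, 5, 8 and 1 steps. Alb was therefore not a low-background gene as a whole: the peaks at 1.92 and 1.54 stood above the 1.42 median of all peaks. The strongest was the third, at chr5:90471829-90472119, with a fold enrichment of 8.67 (5.17 to 13.8), and the lowest was the next one towards the 3′ end, at 5.91 (3.41 to 9.65), with overlapping intervals. The peaks were narrow, 200 to 291 bp, and lay between 12621 and 1404 bp from the 3′ end. No other peak lay within 93937 bp below or 98285 bp above the span, and of the next genes on the high side, all of the albumin family, Afp and Afm had no peak and Albfm1 had 1 of 4 fragments over 0.175, a fold enrichment of 4.26.

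Among fat genes, Fabp4, the fatty acid carrier of adipocytes, had the strongest peak. Its span is chr3:10204342-10208616 (4275 bp, strand not in the table used). The peak at chr3:10204420-10204729 held 21 fragments over 0.192, a fold enrichment of 18.5 (11.7 to 27.8), with its summit 234 bp from the low-coordinate end. The next peaks inward held 9 fragments over 0.192, a fold enrichment of 8.39 (4.29 to 15.2), and 8 over 0.175, a fold enrichment of 7.66 (3.79 to 14.3). Both are lower in value than the first, but their intervals overlap with its interval. The nearest peaks outside the span were 188892 bp below and 229403 bp above. The neighbouring paralogues Pmp2, Fabp9 and Fabp12 had no peak, and Fabp5 had 1 of 14 fragments over a background of 0.769, a fold enrichment of 8.48 (4.89 to 13.8). Fabp4 was 1 of 14 protein-coding genes in the list with 3 or more peaks all at low background.

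The lipid droplet genes Cidec and Plin1 had a weak peak and no peak. On the wider list of lipid droplet and lipolysis genes, 8 of 12 had a peak (66.7%, Wilson interval 39.1 to 86.2), against 44.9% of all protein-coding genes. Cidec, whose protein fuses lipid droplets, had 1 peak at chr6:113424941-113425628 with 5 fragments over 0.192, a fold enrichment of 5.03 (2.20 to 10.6), the lowest of the 19. Its summit lay 407 bp from the 3′ end of the span (chr6:113424634-113435760, minus strand). Plin1, the gene of the perilipin that guards the droplet against lipolysis, had no summit in chr7:79721164-79732904, and the nearest peaks were 7126 bp below and 4867 bp above. How many fragments lay over Plin1 cannot be read from a list of peaks.

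Both hormone genes of the fat cell had peaks at the lowest background. Adipoq, the gene of adiponectin, had 1 peak at chr16:23157076-23157711, 554 bp from the 3′ end of its span (chr16:23146536-23157968, plus strand). It held 16 fragments over 0.175, a fold enrichment of 14.5 (8.64 to 23.0). Lep, the gene of leptin, had 2 neighbouring peaks in chr6:29060221-29073876 (plus strand), 2629 and 2058 bp from the 3′ end. The first held 13 fragments, a fold enrichment of 11.9 (6.74 to 19.8), and the second 8 fragments, a fold enrichment of 7.66 (3.79 to 14.3), both over 0.175. Pparg, the nuclear receptor gene that directs fat cell formation, had no peak in 129526 bp (chr6:115360879-115490404), and the nearest peaks were 413216 bp below and 53412 bp above.

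**Figure D2:**
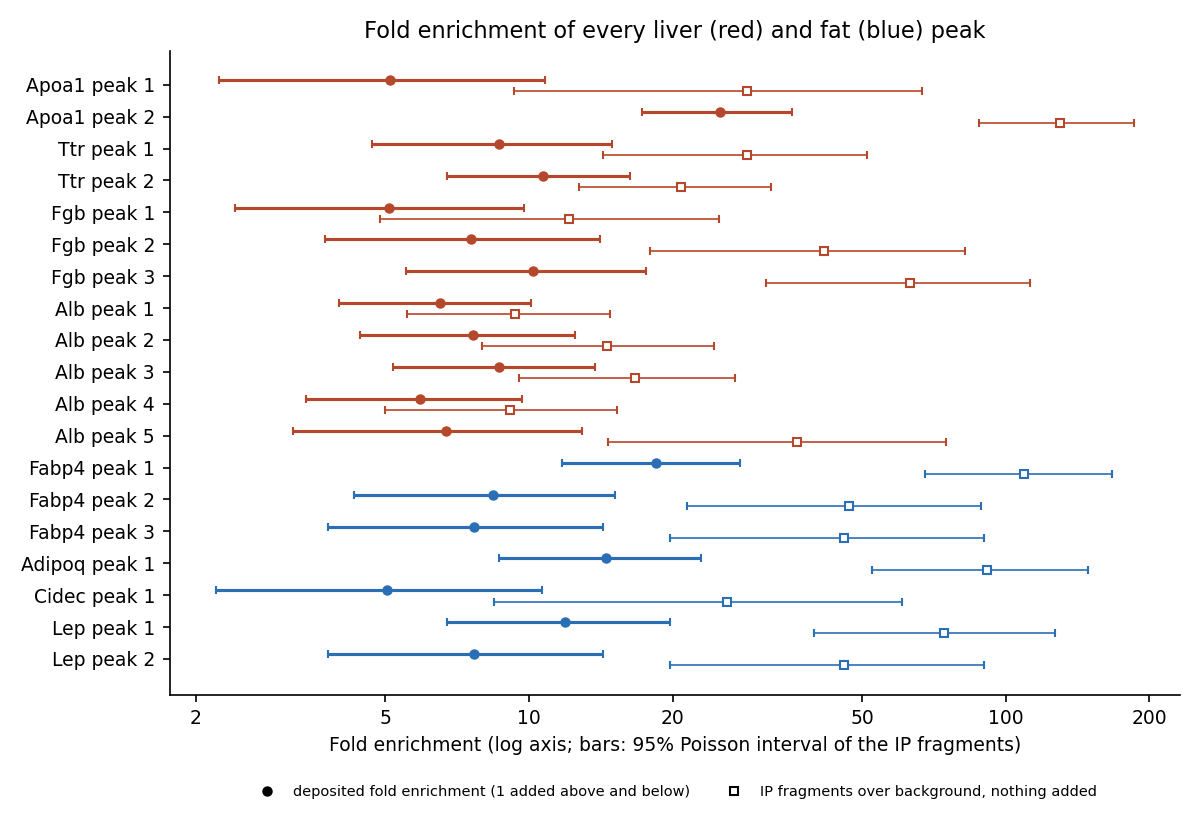
Filled circles give the deposited fold enrichment of each of the 19 peaks, numbered by coordinate, and open squares the IP fragments over background with nothing added, on a log axis with 95% Poisson intervals of the IP fragments. The gap between circle and square is wide at low background, as in the Adipoq peak (14.5 and 91.5) and Fabp4 peak 1 (18.5 and 109.2), and small in Alb peak 1 (6.50 and 9.36).

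At low background the fold enrichment follows the pileup alone, because the added 1 is then most of the divisor. The 2 identical values of 7.66 in Fabp4 and Lep are both 8 fragments over the lowest level. Without the added 1, the strongest peak of Apoa1 would be 130.0 times its background (87.7 to 185.6), that of Fabp4 109.2 (67.6 to 167.0), that of Adipoq 91.5 (52.3 to 148.6) and that of Lep 74.3 (39.6 to 127.1). Such ratios rest on a background of under 1 fragment, whose own error is not in the interval. The order of peaks within a gene also changed. In Alb the last peak, 7 fragments over 0.192, then stood highest at 36.4 (14.6 to 75.0), and in Ttr the peak of 11 fragments did at 28.6 (14.3 to 51.2). Between genes, Ttr had a higher deposited fold enrichment than Fgb and Alb but then stood below both, with Fgb at 62.9.

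Within the 8 chosen genes with a peak, the fat peaks and the liver peaks differed in background. All 7 fat peaks were at low background, as were 4 of the 12 liver peaks, together 11 of 19 (57.9%, Wilson interval 36.3 to 76.9). Of all 26584 peaks, 8.38% were. With the limit at 5 steps, chosen after the data were seen, 17 of 19 peaks passed, against 37.8% of all peaks. Since low background chose the genes, nothing is read from these shares. The median background was 0.175 in the fat peaks and 0.481 in the liver peaks, where it reached 1.92. Fabp4, Adipoq, Cidec and Lep had low background at every one of their peaks, as 5.17% of protein-coding genes with a peak did. With Fgb, 5 of the 8 genes had their strongest peak there, against 6.42% of protein-coding genes with a peak. The wider lists went the other way: the median background at the strongest peak was 0.961 over 35 fat genes and 0.577 over 19 liver genes.

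**Figure D3:**
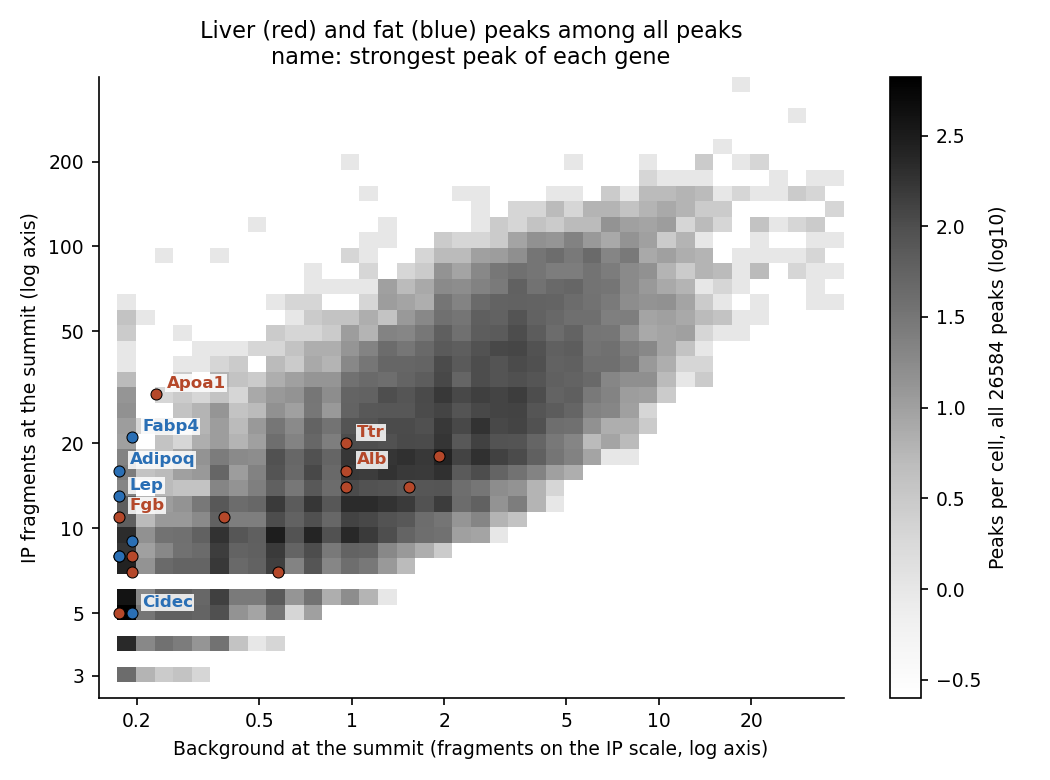
Grey cells count all 26584 peaks by background (x axis) and IP fragments at the summit (y axis), both log axes in fragments on the IP scale, and coloured points are the 19 liver and fat peaks, with the strongest of each gene named. The fat peaks stand at the left edge, at 0.192 or less, as do Apoa1 peak 1, Fgb peaks 2 and 3 and Alb peak 5. The other liver peaks, among them the other 4 of Alb and both of Ttr, lie further right, up to 1.92.

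Set against peaks of the same background, the strongest peaks of Apoa1, Fabp4, Adipoq, Lep and Fgb were high and that of Cidec was not. At the lowest level the median fold enrichment was 5.96, and 49 of 1333 peaks stood above that of Adipoq, 77 above the first of Lep and 113 above the strongest of Fgb. At 1 step the median was 5.87, and 20 of 859 peaks stood above the strongest of Fabp4 but 556 above that of Cidec. Among the 164 peaks with a background within 0.001 of 0.231, only 1 was higher than the strong peak of Apoa1. Ttr and Alb, at 5 steps, were closer to the middle, with 209 and 352 of 1031 peaks above them. These counts set the strongest peak of a gene against single peaks, which favours genes with several peaks. Among the 631 protein-coding genes with their strongest peak at low background, Fabp4 ranked 17, Adipoq 28, Lep 44, Fgb 77 and Cidec 518. Of protein-coding genes with their strongest peak at the lowest level, the 5 highest were Tlcd4 (28.1), Gnb1l (26.4), Dnah7c (24.7), Grin2d (23.0) and Adgrb3 (20.4), none of which is a liver or fat marker in the lists used here. Low-background peaks as a group lay in protein-coding spans in 47.8% of cases, against 86.5% of all peaks.

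The position of the summits followed no single pattern. For the 6 genes with a peak and a known strand, 4 of 14 summits lay within 1 kb of the 3′ end of the span, as did 12.5% of the peaks in protein-coding spans of known strand. The strongest summit did so in 3 of the 6 genes, Apoa1, Adipoq and Cidec, against 17.7% of protein-coding genes. In Fgb, Alb and Lep it lay 2629 to 4593 bp away. Both shares cover spans of every length, while the 6 genes all have spans under 20 kb and that of Apoa1 is 1840 bp. Spans include introns, and exons were not used here, so a distance on the genome is not a distance on the mRNA. Widths were mostly small: 15 of 19 peaks were at most 310 bp wide, against 48.2% of all peaks, and only the strong peak of Apoa1, the peaks of Adipoq and Cidec and the first of Lep exceeded 500 bp.

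Plasma protein genes of the liver had a peak about as often as protein-coding genes in general, of which 44.9% did, or 33.6% of those under 20 kb. Of 40 genes on the list of secreted plasma proteins, 16 had a peak (40%, 26.3 to 55.4), including the 4 named and 12 of the other 36 (33.3%). The strongest peaks had a median fold enrichment of 8.53 and a median background of 0.481, against 9.36 and 1.54 over all protein-coding genes with a peak. Apoc1, an apolipoprotein gene, had 15.9 (9.79 to 24.7) from 18 fragments over 0.192. The fetuin gene Ahsg had 8 fragments over 0.175, the protease inhibitor gene Serpina1a, 1 of several near-identical copies among which reads may be split, 9 over 0.192 and the antithrombin gene Serpinc1 5 over 0.175. Apoa2 had 15 fragments over 0.769, Vtn 8 over 0.384, Rbp4 9 over 0.577 and Hp 32 over 1.92.

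Apoe, at 81 fragments over 3.08, C3, at 42 over 5.77, and F2, at 29 over 3.65, had higher backgrounds. Apoe and C3 are known to be made by many tissues. Against 44.9% of all protein-coding genes, intracellular hepatocyte genes had a peak in 3 of 22 cases (13.6%, 4.75 to 33.3). These were Fabp1, a fatty acid carrier of liver and gut, with 19 fragments over 0.231 and a fold enrichment of 16.3 (10.1 to 24.9), the nuclear receptor gene Nr1i3 with 23 over 1.35, and Pck1, which fat also expresses, with 25 over 2.88. The other 19, Hnf4a, Cps1 and Cyp2e1 among them, had no peak. Markers of visceral endoderm and yolk sac had a peak in 6 of 15 cases (40%, 19.8 to 64.3), against 44.9% of all protein-coding genes. The 6 were Ttr and Apoa1, which are among the 10 genes, and Cubn, Dab2, Gata6 and Sox17. The other 9, Afp, Amn and Rhox5 among them, had none. The part of either source in the liver peaks was not tested.

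**Figure D4:**
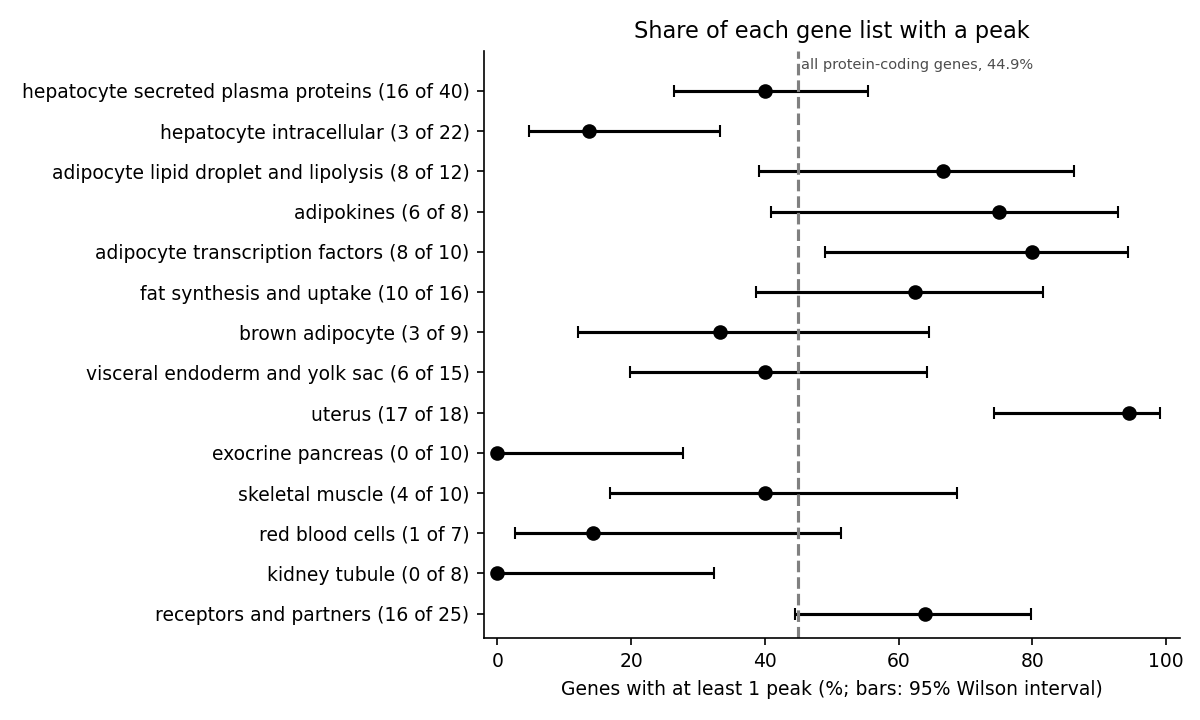
Points give the percentage of each list's genes with at least 1 peak, bars the 95% Wilson interval, and the dashed line the 44.9% of all protein-coding genes. The uterine list stands highest at 17 of 18, intracellular hepatocyte genes are at 3 of 22, and exocrine pancreas and kidney tubule at 0.

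Of the 54 genes on 5 fat lists, 35 had a peak (64.8%, 51.5 to 76.2), against 44.9% of protein-coding genes. The lists were not limited to genes particular to fat, and Rbp4 is also on the plasma protein list. The share therefore does not settle whether fat cells were present. Lipid droplet and lipolysis genes had a peak in 8 of 12 cases, with the lipase genes Lipe at 18 fragments over 1.27 and Pnpla2 at 21 over 2.11, and the lipase inhibitor gene G0s2 at 21 over 0.961. Of 8 adipokine genes, 6 had a peak, and Retn and Cfd, made mostly by fat in mice, had none. Fat transcription factor genes had a peak in 8 of 10 cases. They included Cebpb at a fold enrichment of 28.3 (21.7 to 36.3), Klf15 at 26.5 (21.6 to 32.3) and Cebpa at 24.0 (17.7 to 31.8), over backgrounds of 1.15, 2.69 and 0.961, while Pparg had none. Fat synthesis and uptake genes had a peak in 10 of 16 cases, led by the acetyl-CoA carboxylase gene Acaca at 17.0 (13.2 to 21.6), and brown fat genes in 3 of 9. The last were Dio2, which activates thyroid hormone, at 29.3 (22.0 to 38.3) from 52 fragments over 0.807, the coactivator gene Ppargc1a at 11.8 (7.35 to 18.1), and Prdm16 at 5.87 (2.69 to 11.8). Ucp1 and Cidea were among the 6 without a peak. Of the 35, 7 (20%) had their strongest peak at low background, against 6.42% of protein-coding genes with a peak, and 4 of the 7 are genes chosen for it. The 7 were Fabp4, Adipoq, Cidec and Lep, and Ebf2, Lpin1 and Prdm16 with 3, 5 and 6 fragments. On the 2 liver lists, 5 of 19 genes with a peak (26.3%) had their strongest peak at low background. They were Fgb, which is among the 10 genes, and Apoc1, Ahsg, Serpina1a and Serpinc1. Low background at the strongest peak was therefore not particular to the fat lists.

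Receptors and partners of the 10 gene products, listed after the data were seen, had a peak in 16 of 25 cases (64%, 44.5 to 79.8). Of all protein-coding genes, 44.9% had one, which lies in that interval. The strongest peaks of the receptors and partners had a median background of 2.69, against 1.54 over all protein-coding genes with a peak. The adiponectin receptor gene Adipor2 had 62 fragments over 4.81, a fold enrichment of 10.9 (8.36 to 13.9), and Adipor1 had no peak. The leptin receptor gene Lepr had 4 peaks, the strongest of 10 fragments over 0.577, a fold enrichment of 6.98 (3.68 to 12.3). Abca1, which loads lipid onto apolipoprotein A-I, had 99 over 6.73, and the albumin recycling receptor gene Fcgrt 45 over 4.61. Of the other PPAR genes, Ppara had 8 fragments over 0.577 and Ppard 24 over 3.08, and the PPAR partner genes Rxra, Ncoa1, Med1 and Ncor1 all had peaks. The paralogues Plin2, Plin3, Plin5, Cideb and Fabp3 had none. Other paralogues did: Plin4 had 52 fragments over 4.42, a fold enrichment of 9.78 (7.35 to 12.8), Fabp5 had 14 over 0.769 and Fabp1 19 over 0.231.

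**Figure D5:**
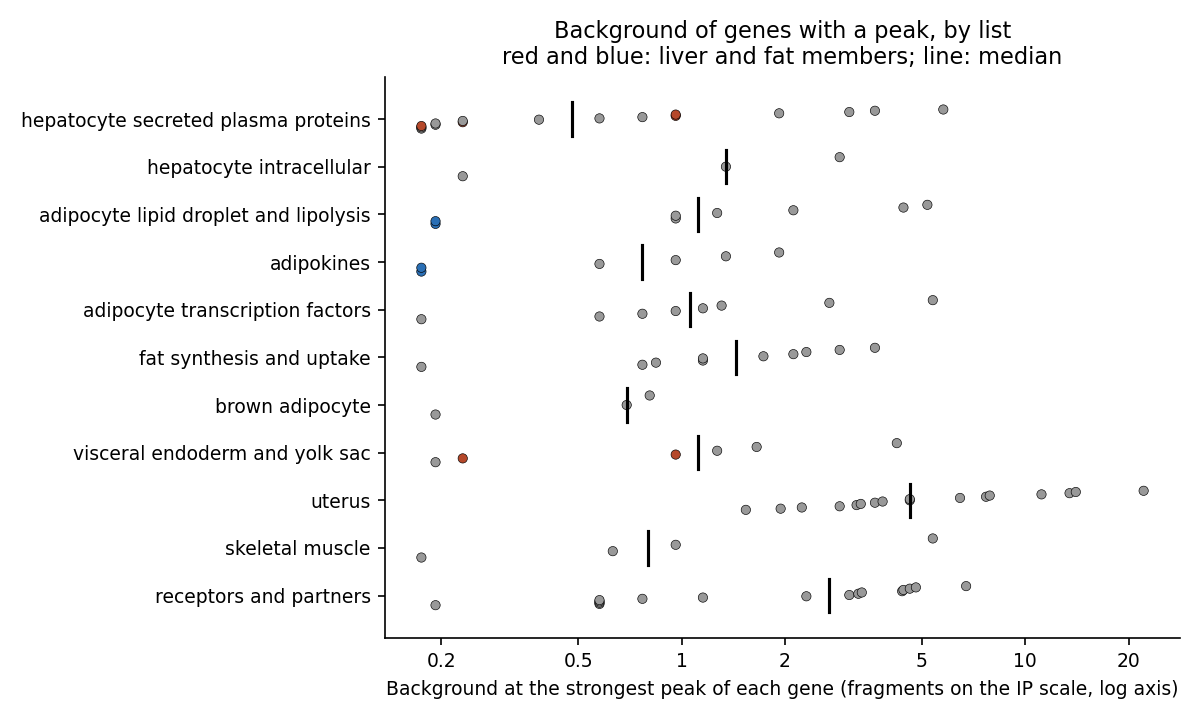
Each point is a gene with a peak, placed by the background at its strongest peak (log axis, fragments on the IP scale), for lists with at least 3 such genes, with a line at the list median. The uterine markers run from 1.54 to 22.1 with a median of 4.61, and the fat members lie at 0.175 or 0.192.

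Uterine markers had a median background of 4.61 at their strongest peaks, against 1.54 over all protein-coding genes with a peak. The 8 liver and fat genes with a peak had 0.192 and were chosen partly for low background. Nothing is therefore read from their distance to the uterine markers. The strongest peaks of the uterine markers had a median fold enrichment of 11.8, beside 11.3 for the 8 liver and fat genes. No strongest peak of a uterine marker was at low background. Without the added 1 the medians of the highest ratio per gene were 15.8 for the uterine markers and 68.6 for the liver and fat genes, so the similarity rests on the added 1. Hand2 held 142 fragments over 3.84 and Des, the desmin gene of muscle, 125 over 22.1. Markers of other tissues varied: exocrine pancreas had a peak in 0 of 10 genes, kidney tubule in 0 of 8 and red blood cells in 1 of 7 (Alas2). Skeletal muscle had a peak in 4 of 10 (40%), Acta1, Myh1, Tnnt3 and Tnni2. The share over all protein-coding genes was 44.9%.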

How the data were processed

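The submitters' processing notes name the build mm10, MACS3 3.0.0a7 and HISAT2 2.2.1, without options, background library or pooling. The authors deposited 1 peak list, called in 1 IP sample. Its values are a fold enrichment ratio, a p-value and a q-value, both as −log10, and a score, all the authors' own, which served here to describe and filter peaks within the list. The lowest −log10 q was 1.31. The input sample's own file was not analysed here.

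IP pileup and background were solved from fold enrichment and Poisson p-value. Solved pileups were whole numbers, to a tolerance of 0.05 of the spacing, in 99.9% of peaks and in all 19 described. The solver returned the pileup of 100% of 2000 simulated peaks, made with the formula it inverts. Gene spans came from RefSeq (GRCm38.p6, the assembly of mm10; 49997 genes, 21900 protein-coding) and strand from the RefSeq promoter table, which held 8 of the 10 genes. C5 was matched through a synonym and all other list genes by symbol. A summit in several spans counted for each. Exons, peak sequences and depth over genes without a peak were not used here, and the peaks carry no strand. Coordinates count from 1.

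The members, lists and alternatives were chosen with earlier results of these data known. Named genes are the 10 members, list genes with a peak and the 5 most enriched protein-coding genes among those with their strongest peak at the lowest background. Genes named for having no peak, neighbours and partners were picked with their values in view. No test was made. Alternatives were a minimum −log10 q of 5, a minimum fold enrichment of 4, a minimum pileup of 10, any or 50% overlap with the span, summits in exactly 1 gene, the pseudocount and the median over a gene's peaks. Tools were matplotlib 3.10.9, scipy 1.17.1, pandas 2.3.3, numpy 2.4.6 and Python 3.11.15.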

Additional observations from a re-analysis of the deposited data

How the results depend on the processing

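The number of the 10 genes with a peak stayed within 1.5 times of 8 under every alternative tried. The counts for the liver and fat lists also stayed within 1.5 times of their own values. With a pileup of at least 10, the liver lists went from 19 genes to 13, close to that limit, and the fat lists from 35 to 29. The number of peaks at low background, 11, was 4 with a pileup of at least 10 and, under definitions chosen after seeing the data, 6 at the lowest level alone and 17 at up to 5 steps. The median fold enrichment of the 19 peaks, 7.66, was 8.53 with −log10 q of at least 5 and 10.2 with a pileup of at least 10. The median over genes of the highest fold enrichment, 11.3, was 11.9 under either of these, 9.04 with a gene's median peak in place of its highest, 18.5 with a pseudocount of 0.5 and 68.6 with none. The stricter q-value and the pileup minimum each left 7 genes with a peak, without Cidec, and the median background at the strongest peak stayed at 0.192. For single genes, filters and overlap rules leave the highest fold enrichment as it is wherever its peak is kept. Of the 8 genes, all moved outside the counting interval with no pseudocount, 4 with a pseudocount of 0.5 and 2 with a gene's median peak. No paired analysis was possible because there is 1 IP sample and no test. Pileups of 5 to 30 fragments limit every fold enrichment, and 1 library pair shows nothing of the spread between animals.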
